A study of Trichoderma reesei with 6 samples.

Results

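The gene *ooc1* (TRIREDRAFT_50323) and 3 genes beside it, TRIREDRAFT_122975, TRIREDRAFT_66077 and TRIREDRAFT_65736, stand next to each other in the annotation of the *Trichoderma reesei* strain QM6a, and their transcripts were all more abundant in the *gul1* disruption strain than in its reference strain. They are 4 of the 9113 genes of the deposited expression table. The genes were chosen by this difference in expression, so that their fold changes between the strains describe the choice and were not tested.

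The strain Δ*gul1*, 1 purified transformant from which the major part of *gul1* was deleted, was compared with the reference strain QPP. Both descend from the uridine auxotroph QP4, a derivative of QM9414 without *pyr4*, and both carry the *Aspergillus niger* gene *pyrG* as a marker. In Δ*gul1* the marker replaced *gul1* sequence, whereas in QPP it integrated randomly. From 3 cultures per strain, precultured for 36 hr on glucose and kept for 48 hr with 1% cellulose, the mRNA of the mycelia was sequenced. As the mutant was 1 transformant, an effect of *gul1* cannot be told apart from other changes that the transformation brought to either strain.

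GUL1 is the counterpart of Ssd1 of *Saccharomyces cerevisiae*, an RNA-binding protein known to repress the translation of mRNAs for cell wall proteins. Cell wall proteins of fungi are often fixed to the membrane or wall by a glycosylphosphatidylinositol (GPI) anchor, a lipid tail added to the end of the protein chain. In filamentous fungi, neighbouring genes can be expressed together from a shared promoter region or stretch of chromatin, and genes of a common metabolic pathway are frequently clustered. Of the 4 genes, TRIREDRAFT_122975 was annotated by the study as coding for a probable GPI-anchored protein. The closest yeast protein listed for it is Psp2, in *S. cerevisiae* an asparagine-rich protein of the cytoplasm. The annotation used here gives *ooc1* a symbol but no function, and gives neither symbol nor function to TRIREDRAFT_66077 and TRIREDRAFT_65736.

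In the QM6a assembly (v2.0), the 4 genes occupy 8824 bp of their scaffold, from 36186 to 45009. They are the 12th to the 15th of 213 annotated genes, and the first annotated gene of the scaffold starts at 3152. TRIREDRAFT_122975 lies from 36186 to 38449, TRIREDRAFT_66077 from 39863 to 40258, *ooc1* from 40973 to 41511 and TRIREDRAFT_65736 from 44548 to 45009. The gaps between them are 1413, 714 and 3036 bp, with no annotated gene in any of them. The scaffold name, the strands and the exons are not given here. The length by which the FPKM of *ooc1* was divided came out at 481 bp, which is 58 bp shorter than its annotated span of 539 bp. For TRIREDRAFT_66077 this length was 315 bp, which is 81 bp shorter than the span, and for TRIREDRAFT_122975 it was 2078 bp, which is 186 bp shorter. The full span of 462 bp was used for TRIREDRAFT_65736. The deposited unit, FPKM (fragments per kilobase of gene, scaled to a fixed library total), is meant to make genes of unequal length comparable. TRIREDRAFT_66077, *ooc1* and TRIREDRAFT_65736 are hardly longer than the sequenced fragments, or shorter. How well the length correction holds for them was not tested, so comparisons of level between the 4 genes are approximate.

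As inferred from the deposited FPKM, the libraries held between 17654286 and 21659230 fragments. In each, 8821 to 8871 genes were above 0 FPKM. The disruption was visible in the data, since *gul1* (TRIREDRAFT_77084) was at 0.979, 0.581 and 0.746 FPKM in the Δ*gul1* libraries, against 86.9, 82.4 and 79.9 FPKM in the QPP libraries (log2 fold change −5.69 with an SE of 0.107; limma's Benjamini-Hochberg adjusted *p* = 1.73e-07). Fold changes were taken on the scale of log2(FPKM + 1) after median-of-ratios scaling, which understates changes of low genes. A gene was called differentially expressed where limma gave an unadjusted *p* under 0.05 and a change of more than 1 on the log2 scale in either direction. By this rule, 1.87% of the 9006 genes tested were called higher in Δ*gul1* and 2.09% lower. All 4 members were called higher, as the choice required.

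The *ooc1* transcript was at 1903, 1758 and 1413 FPKM in Δ*gul1* replicates 1 to 3. In QPP replicates 1 to 3 it was at 109, 119 and 45.0 FPKM. The strains were thus far apart, with the lowest Δ*gul1* library more than 10 times above the highest QPP library, while QPP replicate 3 stood below the other QPP cultures. The mean was 1691 ± 252 FPKM in Δ*gul1* and 90.9 ± 40.05 FPKM in QPP (SD, n = 3 each), a ratio of 16.7 after scaling and a log2 fold change of 4.15 (SE 0.336). Omitting single libraries gave ratios of 13.3 to 19.5, the lowest without QPP replicate 3. By mean FPKM, *ooc1* ranked 49th of all genes in Δ*gul1* and 1638th in QPP. Its values rest on 13130 to 18908 fragments per Δ*gul1* library and on 409 to 1239 per QPP library, so that counting error is small beside the differences between cultures.

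TRIREDRAFT_66077, which lies 714 bp from *ooc1*, was a low transcript in both strains. It was at 15.2, 17.8 and 14.1 FPKM in the Δ*gul1* libraries, against 4.60, 4.40 and 1.35 FPKM in the QPP libraries. Again no Δ*gul1* library came near the QPP libraries, and QPP replicate 3 was the lowest. The means were 15.7 ± 1.89 FPKM in Δ*gul1* and 3.45 ± 1.82 FPKM in QPP (SD, n = 3 each), with a ratio of 4.09 after scaling and a log2 fold change of 1.88 (SE 0.319). Without QPP replicate 3 the ratio was 3.13. The gene was covered by 86 to 99 fragments in Δ*gul1* and by 29, 30 and 8 in QPP. The 95% exact Poisson interval of the 8 fragments in QPP replicate 3 was 3.45 to 15.8, below the interval of 19.4 to 41.6 around the 29 fragments of replicate 1. Such intervals cover counting error only.

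TRIREDRAFT_122975, with the probable GPI anchor, had the lowest mean of the group in QPP, although TRIREDRAFT_65736 was lower in QPP replicates 1 and 2. It had 8.34, 11.7 and 6.30 FPKM in Δ*gul1* replicates 1 to 3, against 1.71, 1.78 and 0.510 FPKM in QPP replicates 1 to 3. The libraries of the strains did not overlap, and in both strains replicate 3 was the lowest. The mean was 8.77 ± 2.71 FPKM in Δ*gul1* and 1.33 ± 0.712 FPKM in QPP (SD, n = 3 each), and the ratio after scaling was 5.91. Without QPP replicate 3 this ratio was 4.52. Its log2 fold change was 1.97 (SE 0.283) with the pseudocount of 1 used throughout, and 2.60 when 0.1 was added instead. Between 253 and 428 fragments per library lay on the gene in Δ*gul1*, and 71, 80 and 20 in QPP.

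TRIREDRAFT_65736, on the far side of the 3036 bp gap, was at 9.96, 10.1 and 10.9 FPKM in the Δ*gul1* libraries. In QPP it was at 1.30, 1.70 and 3.90 FPKM in replicates 1 to 3, so that here QPP replicate 3 was the highest QPP library and not the lowest. It stayed below all Δ*gul1* libraries. The mean was 10.3 ± 0.499 FPKM in Δ*gul1* and 2.30 ± 1.40 FPKM in QPP (SD, n = 3 each), with a ratio of 4.01 after scaling and a log2 fold change of 1.73 (SE 0.257). Leaving out QPP replicate 3 raised the ratio to 6.17, which is opposite to its effect on the other 3 genes. The fragments were 95, 82 and 97 in Δ*gul1* and 12, 17 and 34 in QPP. The 95% Poisson interval of the 34 fragments, 23.5 to 47.5, was above that of the 12 fragments in replicate 1 (6.20 to 21.0), but overlapped that of the 17 fragments in replicate 2 (9.90 to 27.2).

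**Figure D1:**
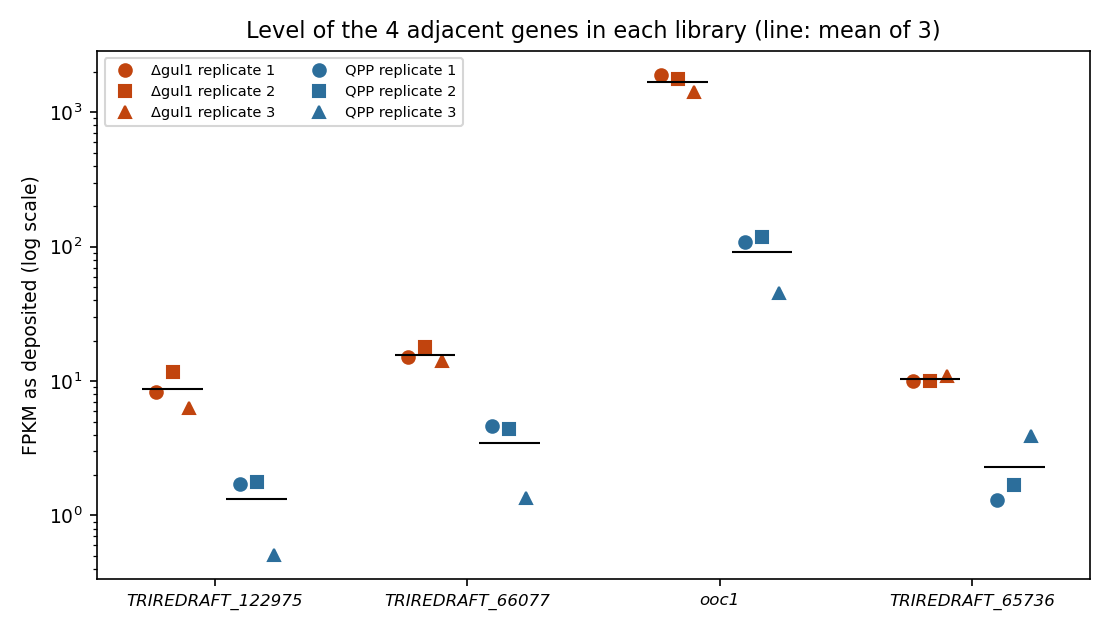
FPKM as deposited (log axis) of the 4 adjacent genes, in the order of the annotation, with 1 point per library and a line at the mean of 3 libraries of Δ*gul1* (left of each pair) and QPP. *ooc1* is at 1413 to 1903 FPKM in Δ*gul1* and at 45.0 to 119 FPKM in QPP, while the other genes stay at or below 17.8 FPKM. QPP replicate 3 (blue triangles) is the lowest QPP library for 3 genes and the highest for TRIREDRAFT_65736.

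After scaling, the 3 Δ*gul1* libraries lay above the 3 QPP libraries for all 4 genes. The choice of the genes makes this likely, and 22.3% of all genes tested showed the same separation in this direction. Levels within the group were very unequal. Of the fragments on the 4 genes together, *ooc1* took 96.1 to 97.2% in the Δ*gul1* libraries and 86.8 to 90.7% in the QPP libraries. The neighbours did not keep a fixed share of the *ooc1* level. The FPKM of TRIREDRAFT_66077 was 0.800, 1.01 and 1.00% of that of *ooc1* in Δ*gul1* replicates 1 to 3, against 4.23, 3.70 and 2.99% in QPP replicates 1 to 3. For TRIREDRAFT_122975 this share was 0.438 to 0.664% in Δ*gul1* and 1.13 to 1.57% in QPP. For TRIREDRAFT_65736 it was 0.523 to 0.769% in Δ*gul1*, against 1.19 and 1.43% in QPP replicates 1 and 2 and 8.65% in QPP replicate 3. In each case *ooc1* differed more between the strains than its neighbour.

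The genes directly beside the group were not called higher on either side. The group was chosen as adjacent genes that all rose, so that this border follows from the choice and was not tested. TRIREDRAFT_65971 starts 56 bp beyond the end of TRIREDRAFT_65736 and was at 1.56, 0.699 and 0.885 FPKM in the Δ*gul1* libraries, against 0.569, 0.877 and 0.302 FPKM in the QPP libraries. Its strains overlapped, and its log2 fold change was 0.30 (SE 0.185), with a ratio of 1.62 after scaling. At so low a level the pseudocount understates changes. The next gene, TRIREDRAFT_109687, had a log2 fold change of 0.36 (SE 0.149), with means of 22.1 ± 3.62 FPKM in Δ*gul1* and 15.2 ± 2.22 FPKM in QPP (SD, n = 3 each). On the other side, TRIREDRAFT_80086 ends 3953 bp before TRIREDRAFT_122975 and was at 6.12, 7.52 and 7.50 FPKM in the Δ*gul1* libraries, against 5.88, 6.03 and 5.82 FPKM in the QPP libraries. Its log2 fold change was 0.08 (SE 0.0995), and that of TRIREDRAFT_122974 beyond it was 0.13 (SE 0.101).

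Over the 10 annotated genes on each side, the log2 fold changes lay between −0.31 and 0.36, with a median of 0.04 (0.01 over all genes tested). Of these 20 genes, 0 were called higher and 0 lower by limma, where 1.87% and 2.09% of all genes were. At an unadjusted *p* under 0.05 without the fold threshold there were 4 (20%, against 41.0% of all genes), and 2 had an adjusted *p* under 0.05 in the same limma fit (10%, against 29.6%). These were TRIREDRAFT_65915 with a log2 fold change of 0.33 (adjusted *p* = 0.00616, limma) and TRIREDRAFT_66059 with −0.31 (adjusted *p* = 0.0108, limma), the ninth and the eighth gene beyond TRIREDRAFT_65736. The median level of the neighbours was 8.46 FPKM in Δ*gul1* and 8.44 FPKM in QPP, against 33.3 and 29.6 FPKM over all genes tested. The shares were not compared among genes of like level. Both medians of the neighbours are within the range of 6.30 to 17.8 FPKM that the 3 low members spanned over the Δ*gul1* libraries. In the QPP libraries, however, these members spanned 0.510 to 4.60 FPKM, below the neighbours' median of 8.44 FPKM in that strain. Moreover, 4 of the 20 neighbours averaged about 1 FPKM or less in both strains, and TRIREDRAFT_65971, directly beside the group, is among them. In the whole table, 2 runs of 4 adjacent genes were called higher and none was longer. The other run reaches from TRIREDRAFT_4146 to TRIREDRAFT_32243.

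**Figure D2:**
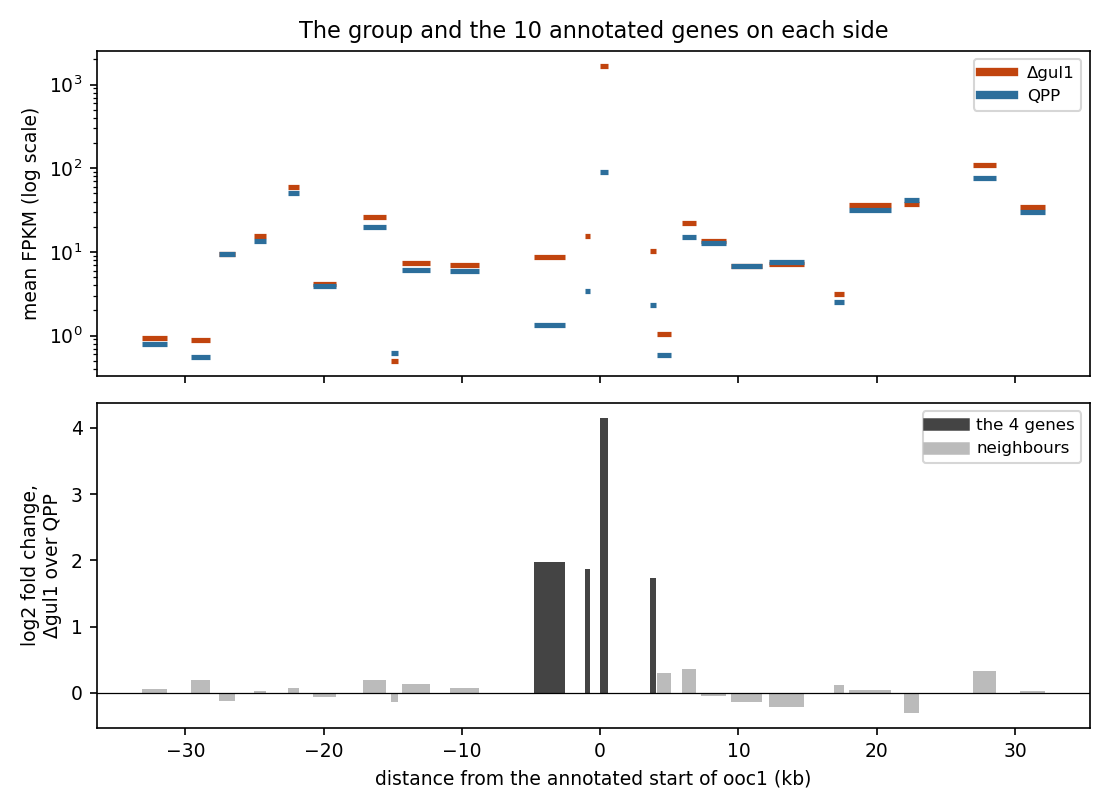
Mean FPKM of the group and of the 10 annotated genes on each side (upper panel, log axis, bars spanning each gene, Δ*gul1* in orange and QPP in blue) and the log2 fold change of Δ*gul1* over QPP (lower panel), against the distance from the annotated start of *ooc1* in kb. The 4 genes of the group are between 1.73 and 4.15, and the 20 neighbours between −0.31 and 0.36.

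The deviations of the libraries from the mean of their strain were compared between the genes next. They are a description too, since the call that the members had to pass also weighs the spread within strains. The members varied more than most genes. The SD of log2 values within strains was 0.564 for *ooc1*, 0.523 for TRIREDRAFT_66077, 0.460 for TRIREDRAFT_122975 and 0.414 for TRIREDRAFT_65736, while the median was 0.0986 over the 6676 other genes that averaged 10 FPKM or more. More than 99% of those genes varied less than any member. The 3 low members average less than 10 FPKM and so are outside this range of levels. They rest on 8 to 80 fragments per QPP library, so that counting error adds more to their spread than to that of most genes they are set against. The pseudocount of 1, however, shrinks the SD of these low genes and hardly that of *ooc1*. As deposited, the highest QPP library was 2.64 times the lowest for *ooc1*. This ratio was 3.42 for TRIREDRAFT_66077, 3.49 for TRIREDRAFT_122975 and 3.01 for TRIREDRAFT_65736. In Δ*gul1* the ratios were 1.35, 1.26, 1.85 and 1.09 in the same order of genes.

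The largest deviation of each member was in QPP replicate 3. There it was −0.88 for *ooc1*, −0.83 for TRIREDRAFT_66077 and −0.59 for TRIREDRAFT_122975, all among the lowest 0.478% of 8153 genes that averaged 1 FPKM or more. TRIREDRAFT_65736 deviated by 0.66, above 99.98% of these genes. The pseudocount shrinks the deviations of the 3 low members, so that their sizes cannot be ranked against that of *ooc1*. The deviations in Δ*gul1* replicate 3 were −0.26 for *ooc1*, −0.15 for TRIREDRAFT_66077, −0.39 for TRIREDRAFT_122975 and 0.06 for TRIREDRAFT_65736. Thus replicate 3 was the lowest library of both strains for 3 of the genes and the highest for TRIREDRAFT_65736.

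**Figure D3:**
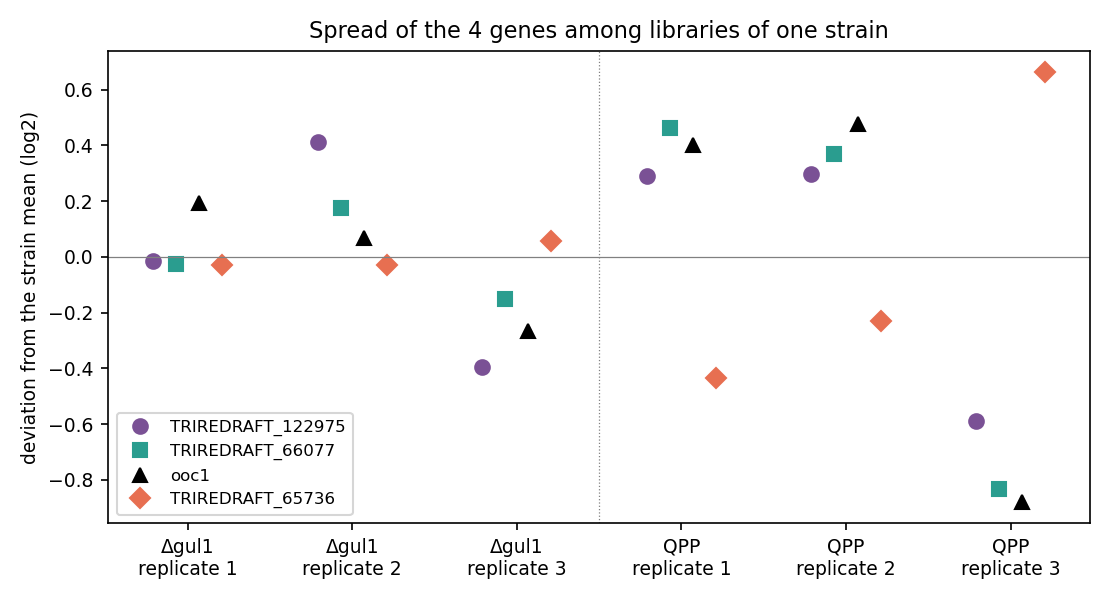
Deviation of each library from the mean of its strain (log2 of scaled FPKM + 1) for the 4 genes, with Δ*gul1* libraries left and QPP libraries right of the dotted line. In QPP replicate 3, *ooc1*, TRIREDRAFT_66077 and TRIREDRAFT_122975 lie at −0.88 to −0.59 and TRIREDRAFT_65736 at 0.66. The deviations in Δ*gul1* stay between −0.39 and 0.41.

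That QPP replicate 3 was the lowest or the highest QPP library was not particular to the group. The size of these deviations was unusual, however. The median absolute deviation of the 8153 genes was 0.0711 on the log2 scale in QPP replicate 3, 0.0707 in replicate 1 and 0.0472 in replicate 2. Over all 8153 genes, QPP replicate 3 was the lowest QPP library for 38.8% and the highest for 35.1%. Among the 168 genes called higher in Δ*gul1*, it was the lowest QPP library for 104 and the highest for 28. Δ*gul1* replicate 3 was the lowest Δ*gul1* library for 92 of the 168, and for 28.8% of the 8153 genes. *ooc1*, TRIREDRAFT_66077 and TRIREDRAFT_122975 followed the larger part of the called genes in this respect, and TRIREDRAFT_65736 the smaller part.

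As a measure of co-variation, Pearson's r of the deviations from the strain mean was taken over the 6 libraries. It was 0.96 between *ooc1* and TRIREDRAFT_66077, 0.87 between *ooc1* and TRIREDRAFT_122975 and −0.95 between *ooc1* and TRIREDRAFT_65736. The 6 points leave 4 degrees of freedom and share the depth and scaling of each library, so that these values are descriptions. Of the 6676 other genes that averaged 10 FPKM or more, 0.404% were as much like *ooc1* as TRIREDRAFT_66077 or more, and 3.27% as much as TRIREDRAFT_122975 or more. TRIREDRAFT_65736 was at the other end, with 0.599% of the genes as low or lower. All 3 values were nearer to 0 without QPP replicate 3. Then r was 0.53 for TRIREDRAFT_66077, 0.67 for TRIREDRAFT_122975 and −0.28 for TRIREDRAFT_65736, and 21.6%, 13.7% and 65.8% of the genes were at or above them.

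**Figure D4:**
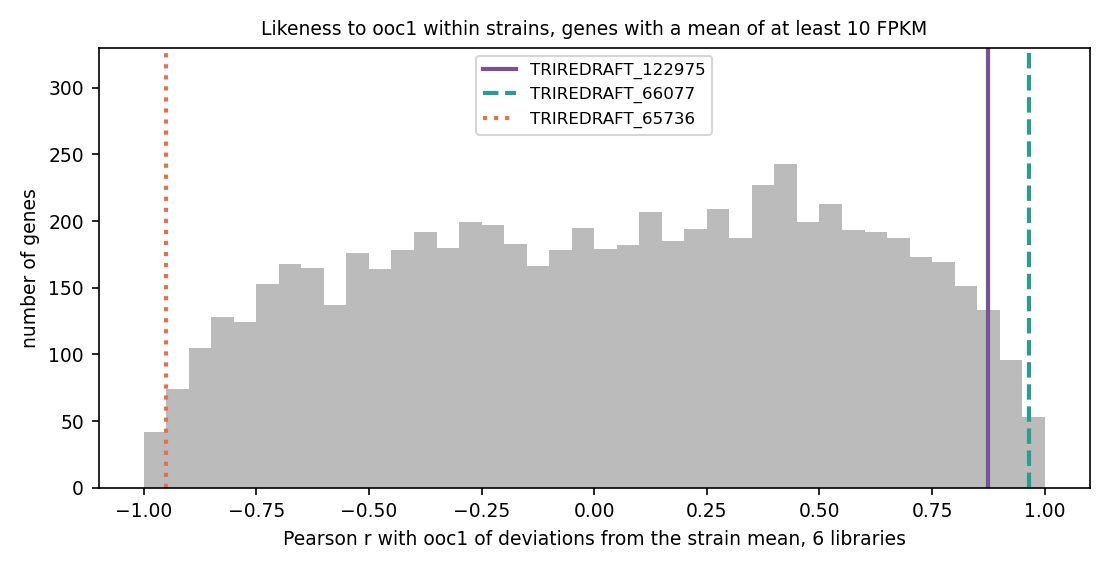
Number of genes by Pearson's r with *ooc1* of the deviations from the strain mean over 6 libraries, for 6676 genes that averaged 10 FPKM or more. Vertical lines mark the other 3 genes of the group, TRIREDRAFT_66077 at 0.96, TRIREDRAFT_122975 at 0.87 and TRIREDRAFT_65736 at −0.95.

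The 5 genes with the highest r to *ooc1* were TRIREDRAFT_103205, TRIREDRAFT_65832, TRIREDRAFT_120414, TRIREDRAFT_109243 and TRIREDRAFT_67647, with r between 0.99 and 1.00. After scaling, they shared the order of the libraries with *ooc1* but not the size of the swings, since their SD within strains was only 0.0396 to 0.272. With swings so small the order can depend on the scaling. As deposited, TRIREDRAFT_67647 was at 58.48, 58.63 and 56.43 FPKM in Δ*gul1* replicates 1 to 3, an order unlike that of *ooc1*. The other 4 kept the order of *ooc1* as deposited. TRIREDRAFT_65832 is the tenth gene beyond TRIREDRAFT_65736, and its log2 fold change between the strains was 0.03 (adjusted *p* = 0.741, limma). Of the other 4, TRIREDRAFT_103205 was at 32.6 ± 0.0356 FPKM in Δ*gul1* and 15.6 ± 0.690 FPKM in QPP (SD, n = 3 each; log2 fold change 0.87, adjusted *p* = 0.000118, limma). TRIREDRAFT_67647 had 0.45 (adjusted *p* = 0.00339, limma), TRIREDRAFT_120414 had 0.15 (adjusted *p* = 0.0973, limma) and TRIREDRAFT_109243 had −0.30 (adjusted *p* = 0.233, limma). None of the 5 passed the threshold on the fold change.

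When the size of the deviations was counted too, by the root mean square difference from those of *ooc1*, other genes came first. This measure was added after the values had been seen. TRIREDRAFT_66077 differed from *ooc1* by 0.123 on the log2 scale, and of the 6676 genes only *chi18-12*, a gene of chitinase family 18, was nearer (0.0879). TRIREDRAFT_122975 differed by 0.226, with 11 genes nearer, and TRIREDRAFT_65736 by 0.789, with 2 genes farther. The median gene differed by 0.462. The pseudocount shrinks the deviations of the low members, and so enters their differences from *ooc1*. Without QPP replicate 3, 18.5% of the genes were nearer than TRIREDRAFT_66077, 70.5% nearer than TRIREDRAFT_122975 and 66.2% nearer than TRIREDRAFT_65736, whose difference from *ooc1* was then 0.185.

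The 5 nearest genes on this measure were *chi18-12*, TRIREDRAFT_124277, TRIREDRAFT_4517, TRIREDRAFT_123236 and TRIREDRAFT_108749. *chi18-12* was at 223, 250.4 and 193 FPKM in the Δ*gul1* libraries, against 90.6, 101 and 39.3 FPKM in the QPP libraries (log2 fold change 1.46, adjusted *p* = 0.0116, limma). TRIREDRAFT_124277, which the study also annotated as a probable GPI-anchored protein, was at 181, 207 and 148 FPKM in Δ*gul1*, against 32.8, 32.1 and 15.0 FPKM in QPP (log2 fold change 2.61, adjusted *p* = 0.000461, limma). TRIREDRAFT_123236 was at 1163, 1320.5 and 841 FPKM in Δ*gul1*, against 104, 122 and 36.5 FPKM in QPP (log2 fold change 3.64, adjusted *p* = 0.000617, limma). These genes shared with *ooc1* a low value in QPP replicate 3 and a rise in Δ*gul1*. TRIREDRAFT_4517 and TRIREDRAFT_108749 shared the low value, but their log2 fold changes of 0.86 and 0.32 had adjusted *p* of 0.147 and 0.505 in the same limma fit, and their strains overlapped.

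TRIREDRAFT_122975 is among 86 genes that the study predicted to code for GPI-anchored proteins. Of these, 5 were called higher in Δ*gul1* (5.81%, against 1.87% of all genes) and 7 lower (8.14%, against 2.09%). Without TRIREDRAFT_122975, which was chosen for its change, 4 of 85 were called higher (4.71%). The median log2 fold change of the 86 genes was 0.01, as over all genes. At an adjusted *p* under 0.05 in limma, with either direction and any size, there were 47 of the 86 (54.7%, against 29.6% of all genes). The 86 genes were more abundant than most, with a median level of 69.9 FPKM in Δ*gul1* and 87.2 FPKM in QPP. Over all genes tested these medians were 33.3 and 29.6 FPKM. The shares were not compared among genes of like level.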

How the data were processed

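RNA-seq libraries of 3 Δ*gul1* and 3 QPP cultures were used, grouped by their labels. The deposited values are FPKM of 9113 genes, which the authors made from reads aligned by HISAT2 to the QM6a genome and counted by HTSeq. Whether counting used the strand is not given in the sources used here. The 4 genes and the lists were chosen with earlier results of these data known.

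For the fit, the table was scaled by the median of ratios (factors 0.930 to 1.07) and log2(value + 1) was taken. The 9006 genes not at 0 throughout were fitted with limma 3.58.1 (R 4.3.3; eBayes with a trend, strain as the only term), with Benjamini-Hochberg adjustment. The fit was tested on simulated data. Means and SD were taken on unscaled FPKM.

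Fragments were recovered as whole multiples of the smallest step of each library (tolerance 0.01 fragment plus 2e-05 of the value). The library totals were inferred from these steps too and were not read from a source. Each of the 4 genes had 1 possible length. Genes named are the 4 members, *gul1*, the 2 nearest genes on each side and the 5 most like *ooc1*. TRIREDRAFT_65915, TRIREDRAFT_66059 and the genes nearest by root mean square difference were named after their values had been seen. Gene order came from a RefSeq table of the assembly, in which 9109 of 9113 names matched. Scaffold limits were read from drops in the start position. Promoter and protein sequences were not analysed here, so near-identical copies that could share reads were not looked for. Other values came from Python 3.11.15 with scipy 1.17.1, pandas 2.3.3 and numpy 2.4.6. Alternatives were other scalings, pseudocounts and filters, eBayes without a trend, a replicate block and leaving out each library.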

Additional observations from a re-analysis of the deposited data

How the results depend on the processing

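Under every alternative tried, the 4 log2 fold changes stayed above 1.4 and kept their sign. The genes were chosen for a rise in these same libraries, so that the kept sign follows from the choice and is no test of the rise. That of *ooc1* was between 3.71 and 4.39, of TRIREDRAFT_122975 between 1.68 and 2.71, of TRIREDRAFT_66077 between 1.46 and 2.22 and of TRIREDRAFT_65736 between 1.52 and 2.16. By construction, smaller pseudocounts raised those of the low genes. TRIREDRAFT_122975 had 2.60 with a pseudocount of 0.1 and 2.71 with 0.01, TRIREDRAFT_65736 had 2.16 with 0.01, and the number of genes called higher in Δ*gul1* was 289 and 314 in place of 168. Without scaling, all genes together shifted to a median of 0.14 on the log2 scale, in place of 0.01, and 237 genes were called higher and 150 lower, in place of 168 and 188. With single libraries left out, the within-strain r with *ooc1* ranged from 0.67 to 1.00 for TRIREDRAFT_122975, from 0.53 to 0.99 for TRIREDRAFT_66077 and from −0.97 to −0.28 for TRIREDRAFT_65736, each weakest without QPP replicate 3. With the replicate number as a block, 169 genes were called higher. The deviations of same-numbered libraries correlated at −0.09, 0.18 and 0.37, and those of differently numbered libraries at −0.44 to 0.33. With 3 libraries per strain, these values cannot decide whether the numbers pair the cultures. For the 3 low genes, 8 to 80 fragments per QPP library limit the precision.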

Other observations

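The 149 genes whose within-strain deviations had an r of at least 0.9 with those of *ooc1* included 15 that were called higher in Δ*gul1* (10.1%) and 1 called lower (0.671%). Their log2 fold changes had a median of 0.08. Of the 6676 genes this was computed over, whose mean reached 10 FPKM, 118 were called higher (1.77%) and 137 lower (2.05%). The 116 genes with an r of −0.9 or below, the side on which TRIREDRAFT_65736 lies, included 1 called higher and 3 called lower, with a median of −0.02. These r include QPP replicate 3, in which *ooc1* deviated most (−0.88). The same library was the lowest QPP library for 104 of the 168 genes called higher. The sets were not formed again without that library.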
